A study of Homo sapiens with 9 samples.

Results

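The proteasome subunit genes are the 37 genes, of 26485 in the deposited count table, whose symbols consist of PSMA, PSMB, PSMC or PSMD and a number, leaving out PSMB8 and PSMB9. They comprise 17 core genes (8 PSMA and 9 PSMB), 6 ATPase genes (PSMC) and 14 regulatory genes (PSMD). Their poly(A) RNA was counted in HEK293, an established line of human embryonic kidney cells, in 3 groups of 3 libraries. WT cells carry UBE3D, a gene annotated as an E3 ubiquitin ligase; in KO cells it was knocked out by CRISPR/Cas9; addback cells are KO cells to which UBE3D was returned. The labels call the samples pooled and name neither separate cultures nor the number of knockout clones, so p-values measure only the spread between these libraries, and a property of 1 clone cannot be told apart from loss of UBE3D. The design text names expression changes and readthrough transcripts after UBE3D loss as the purpose, so each group was compared with the others. In RNA from whole cultures, fewer cells that express a gene and less of its RNA per cell cannot be told apart.

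The proteasome is the large protease that degrades proteins tagged with ubiquitin. Its core particle is a barrel of alpha rings, built of PSMA proteins, around beta rings of PSMB proteins, of which PSMB5, PSMB6 and PSMB7 carry the chymotrypsin-like, caspase-like and trypsin-like active sites. The regulatory particle on the end of the barrel has a base, with a ring of PSMC ATPases that unfold and thread substrates and PSMD scaffolds and ubiquitin receptors, and a lid of PSMD proteins in which PSMD14 removes ubiquitin. Subunits occur in fixed proportion in the particle, and the transcription factor NFE2L1, acting through antioxidant response elements, is known to raise their genes together when proteasome activity falls.

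Libraries held 23088295 to 37508780 counts. UBE3D stood at 19.5, 21.4 and 26.6 scaled CPM (counts per 1000000 of a library size scaled as the processing section describes) in WT, at 13.2, 15.8 and 14.5 in KO and at 3350, 3292 and 2744 in addback. The log2 fold of KO over WT was -0.62 (edgeR adjusted p = 0.00412), and its level in addback was far above the WT level. WT and addback libraries also carried reads spread over coding sequence, among them genes of other tissues: this background was estimated at 3.00%, 7.55% and 15% of the WT libraries, at 2.62%, 11.1% and 11.4% of the addback libraries and at 0% of the KO libraries. HEK293 markers VIM, KRT8, KRT18, NEFL, NEFM and GATA3 were present in every library, and PAX2 was at 2.05 to 3.50 CPM in KO and 10.3 to 17.6 in the other groups. The epithelial gene EPCAM was at 104 to 154 CPM in every library and higher in KO than in WT (log2 fold 0.41, edgeR adjusted p = 0.00067), whereas PTPRC, CD3E, ALB, PECAM1 and ESR1 were under 1 CPM in every KO library and reached 43.6 CPM (PTPRC) in WT. Because the background moves with genotype, library sizes were scaled on the 7663 genes whose estimated background is at most 10% of their level, and 33 of the 37 members are among them; the exceptions are PSMA8, PSMB11, PSMB10 (15% background) and PSMD5 (10.4%).

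All 37 members passed the filter on low counts. PSMA8, the testis form of an alpha subunit, and PSMB11, the beta subunit of thymus epithelium, passed it through the WT and addback libraries alone. PSMA8 had 21, 97 and 144 counts in WT, 0 in all KO libraries and 20, 88 and 130 in addback, beside 21.3, 64.6 and 83.6 counts estimated as background in WT. PSMB11 had 9, 171 and 33 counts in WT, 1, 0 and 2 in KO and 25, 115 and 78 in addback, beside 23, 69.8 and 90.3 estimated in WT. PSMB11 thus stood above its estimate in WT library 2 and below it in WT libraries 1 and 3. Both genes are called in the 2 comparisons that involve KO, the estimated background is 69.9% (PSMA8) and 95.9% (PSMB11) of their mean level. No fold is given for them. Levels below refer to the 35 other members.

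Per kilobase of exon, levels in WT spanned from 8.61 scaled CPM per kb for PSMB10, the interferon-inducible form of the trypsin-like subunit, to 221 for PSMB1, a structural beta subunit, with a median of 78.0. PSMA4 of the alpha ring (216) and PSMD8 of the lid (213) followed PSMB1, and these neighbours in the order differed by less than their spread. In WT the alpha ring genes had a median of 88.4 (23.2 for PSMA5 to 216), the ATPase genes of 88.9 (47.4 for PSMC6 to 144 for PSMC4) and the 8 lid genes of 63.2 (45.3 for PSMD13 to 213). PSMD5, PSMD9 and PSMD10, chaperones that help assemble the base and leave before the particle is complete, stood at 9.66, 17.6 and 52.0. Subunits that enter the particle in equal number thus differed widely in RNA level per length, where the length counts every annotated exon base. From WT to KO no member moved by more than 4 places in this order, and from WT to addback none by more than 6, the latter being PSMB7 (from place 13 to place 19).

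**Figure D1:**
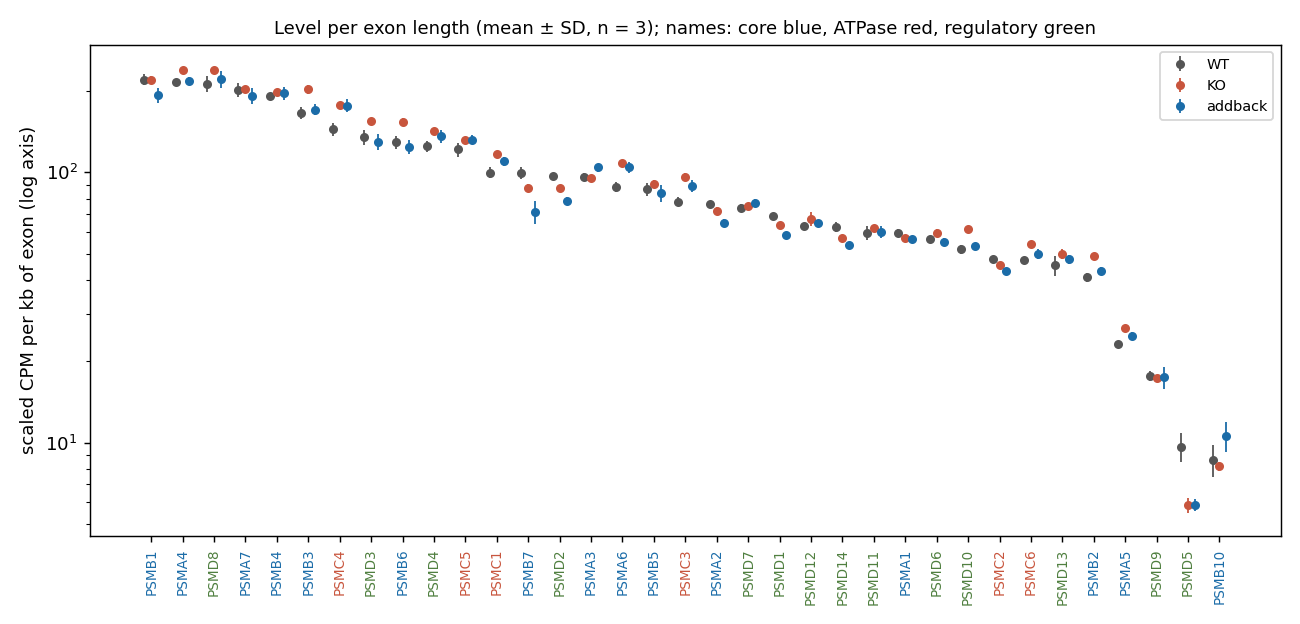
Level of 35 proteasome subunit genes per kilobase of exon (vertical axis, scaled CPM per kb, log axis; points are means of 3 libraries and bars SD) in WT, KO and addback, ordered by the WT level. PSMB1 leads at 221 in WT and PSMB10 is lowest at 8.61; PSMD5 falls from 9.66 in WT to 5.85 in KO and 5.89 in addback.

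In KO against WT the members moved in both directions and by little: 14 of 37 were called higher and 8 lower (edgeR's quasi-likelihood test, adjusted p under 0.05), and the folds of the 35 members lay between -0.72 and 0.31 on the log2 scale. Of all genes tested, 62% were called, 9.54% higher and 52.4% lower; of low-background genes, 23.3% higher and 26.2% lower. Without PSMA8 and PSMB11 the members' counts were 14 higher (40.0%) and 6 lower (17.1%), so the share called higher lay above that of low-background genes and the share called lower below it. The median fold was 0.08 over the 35 members and -0.02 over low-background genes. Directions here rest on the scaling: with TMM factors over all genes, which raise the median of all genes by 0.34, 24 members were called higher and 3 lower. With the background estimate doubled and subtracted, 8 were higher and 10 lower. Among the members with values in every library below, PSMD5 alone stayed called lower with DESeq2, TMM over all genes and upper quartile factors, with folds from -0.60 to -0.38.

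**Figure D2:**
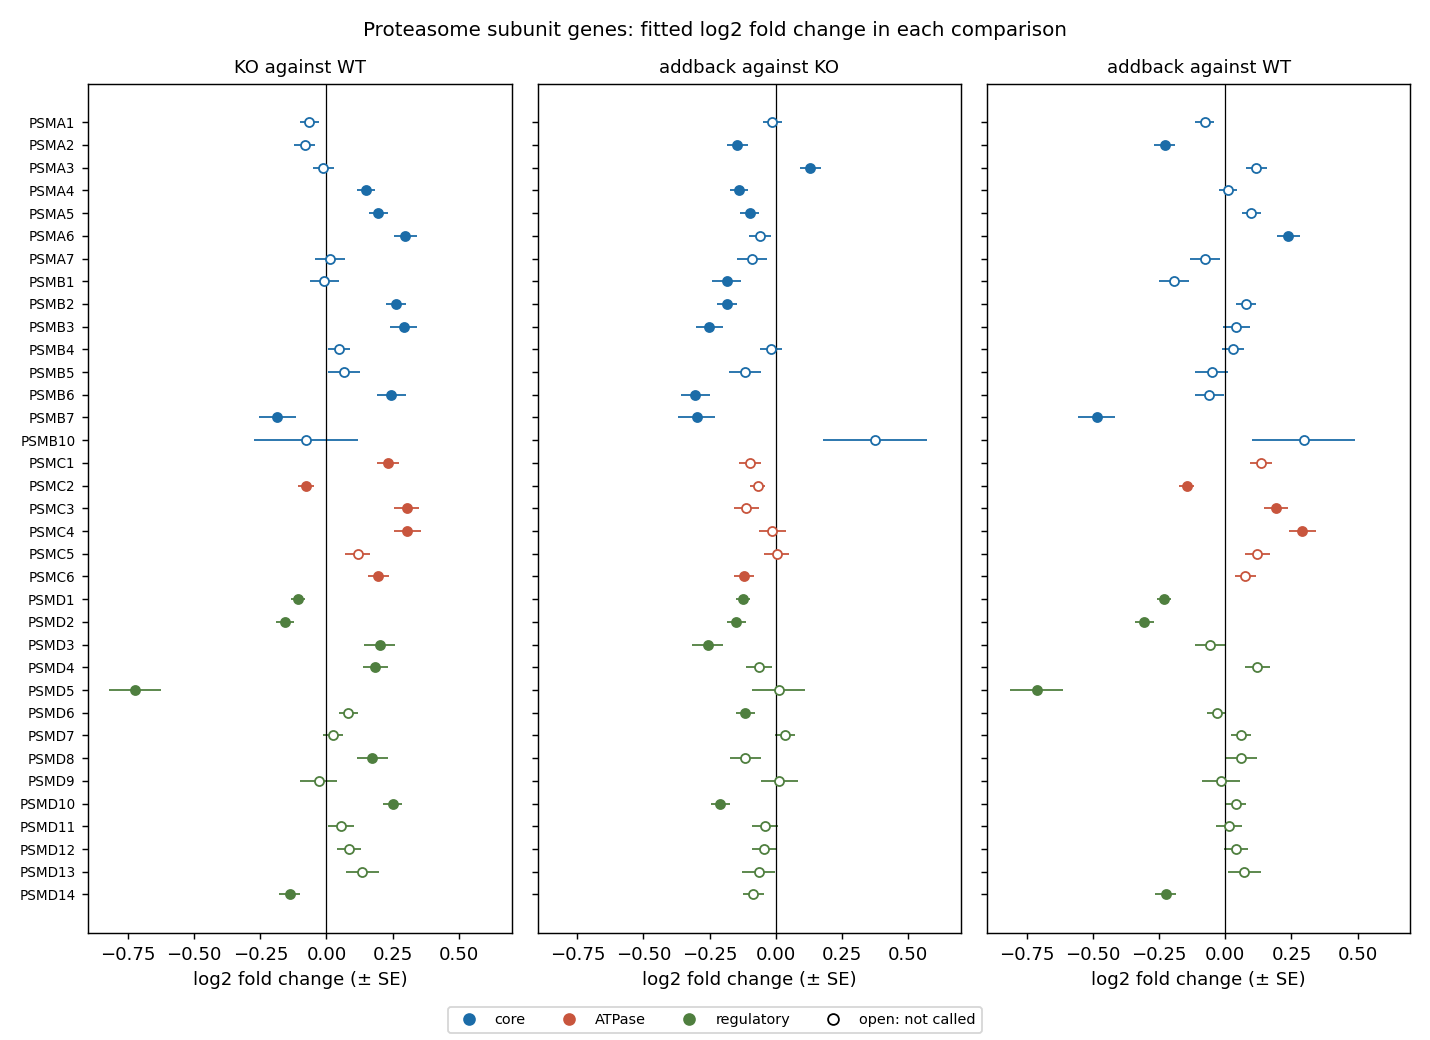
Fitted log2 fold change of 35 proteasome subunit genes (horizontal axis; bars are standard errors) in each of the 3 comparisons of 3 against 3 libraries; filled points are called at an adjusted p under 0.05. PSMD5 is the lowest point in KO against WT (-0.72) and in addback against WT (-0.71), and most members lie within 0.31 of 0.

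Among the 15 core genes without PSMA8 and PSMB11, 6 were called higher in KO than in WT and 1 lower, with a median of 0.05. In the alpha ring, PSMA4, PSMA5 and PSMA6 rose and the other 4 did not pass the test. PSMA6 was at 118, 114 and 109 scaled CPM in WT, at 142, 138 and 139 in KO and at 141, 132 and 129 in addback. WT thus lay below both other groups, which overlapped each other: KO exceeded WT by 0.30 ± 0.04 (log2 fold ± SE, adjusted p = 0.00118) and addback exceeded it by 0.24 ± 0.04 (adjusted p = 0.00826). PSMB3, a structural beta subunit, was at 139, 129 and 127 in WT, 163, 168 and 155 in KO and 141, 138 and 129 in addback. KO stood above WT by 0.29 ± 0.05 (adjusted p = 0.00193), and WT and addback overlapped. PSMA3 of the alpha ring had 96.7, 92.6 and 98.7 in WT, 95.5, 97.0 and 93.0 in KO and 104, 101 and 108 in addback, and it was the member called higher in addback than in KO besides PSMA8 and PSMB11 (0.13 ± 0.04, adjusted p = 0.0191). That call was lost without KO library 1 (adjusted p = 0.0517), KO library 3 or addback library 3 (0.0723 each), and the fold turned to -0.17 with TMM factors over all genes.

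The catalytic subunits did not move together. PSMB5, which has the chymotrypsin-like site, was at 130, 130 and 118 scaled CPM in WT, 134, 135 and 127 in KO and 129, 124 and 112 in addback. All 3 groups overlapped, and its folds of 0.07 ± 0.06 (KO over WT), -0.12 ± 0.06 (addback over KO) and -0.05 ± 0.06 (addback over WT) were not called (adjusted p = 0.374, 0.134 and 0.939). With replicate number as a block the second was called (-0.12, adjusted p = 0.016), and DESeq2 and TMM factors over all genes called the first and second (0.32 and -0.38, and 0.40 and -0.41). PSMB6, with the caspase-like site, was at 119, 113 and 107 in WT, 133, 139 and 130 in KO and 114, 110 and 102 in addback. Its KO libraries lay above all others, with a fold of 0.25 ± 0.05 against WT (adjusted p = 0.00478), and addback lay below KO by 0.30 ± 0.05 (adjusted p = 0.00273). PSMB7, with the trypsin-like site, was at 106, 102 and 95.9 in WT, 86.7, 92.4 and 88.0 in KO and 79.1, 65.2 and 72.8 in addback. No groups overlapped and the order was WT, KO, addback: PSMB7 was lower by 0.49 ± 0.07 in addback than in WT (log2 -0.49, adjusted p = 0.00267) and lower by 0.30 ± 0.07 in addback than in KO (log2 -0.30, adjusted p = 0.0066). The difference of KO from WT (-0.19 ± 0.07, adjusted p = 0.0421) missed the threshold without any one of WT library 1 (0.159), WT library 2 (0.0903) or KO libraries 1 (0.12), 2 (0.0568) and 3 (0.106), and the fold was 0.14 with TMM factors over all genes. PSMB10, the inducible counterpart of PSMB7, was at 7.81, 10.0 and 8.16 in WT, 8.56, 7.89 and 8.19 in KO and 9.13, 11.8 and 11 in addback. Its folds (-0.08 ± 0.19, 0.37 ± 0.19 and 0.30 ± 0.19 in the order used for PSMB5) were not called (adjusted p = 0.745, 0.128 and 0.581).

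**Figure D3:**
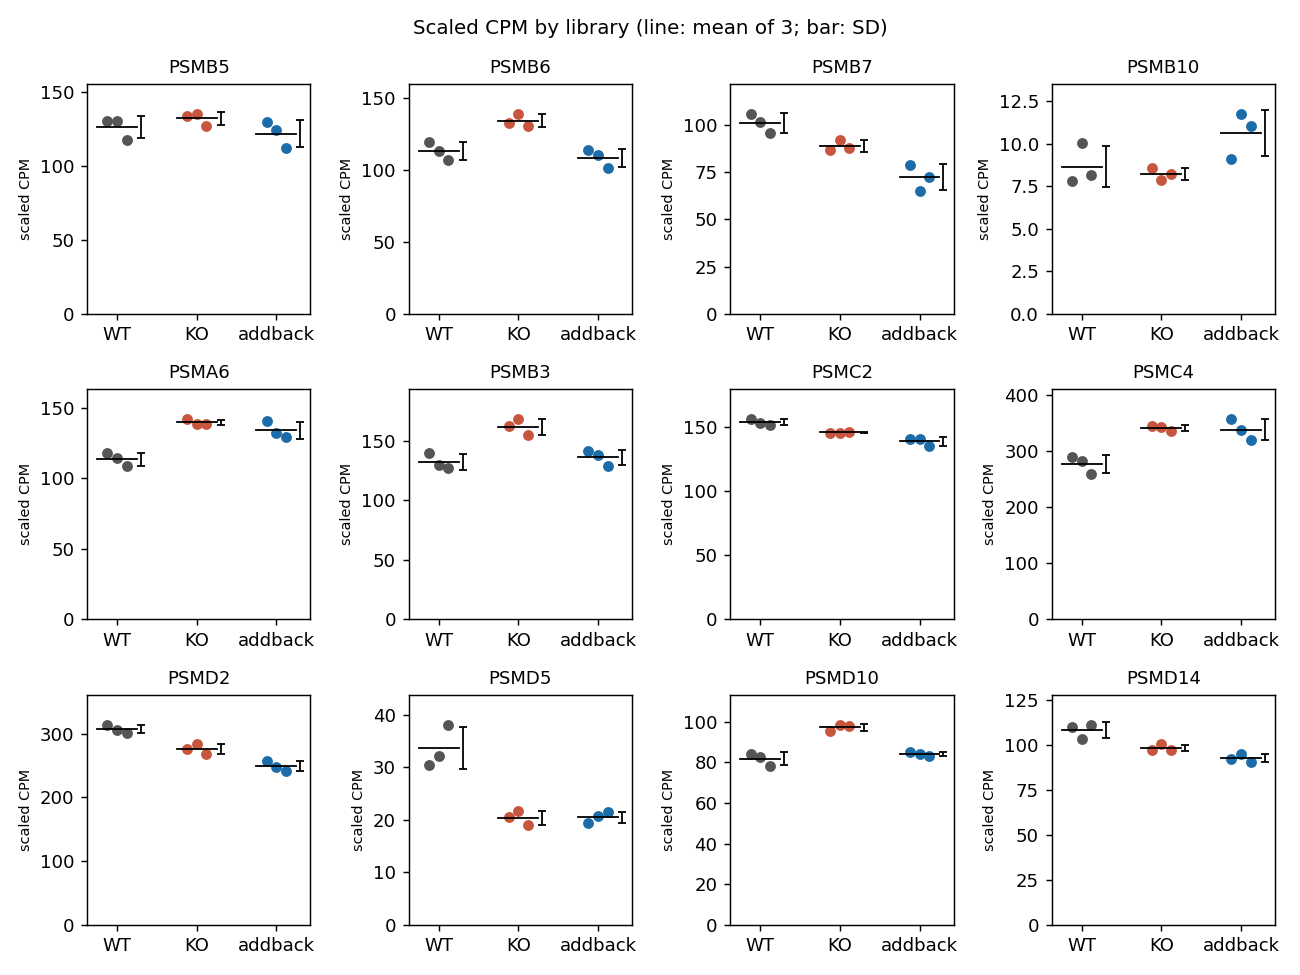
Scaled CPM (vertical axes, from 0) of 12 proteasome subunit genes in each of the 9 libraries, by group; lines are means of 3 and bars SD. PSMB6, PSMB3 and PSMD10 are high in KO alone, PSMC4 and PSMA6 are high in KO and addback, PSMD5 is low in both, and PSMB7, PSMC2, PSMD2 and PSMD14 step down from WT to KO to addback.

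Ratios of counts between members of 1 library do not depend on how libraries are scaled. PSMB7 had 0.890, 0.896 and 0.898 counts per PSMB6 count in WT, 0.652, 0.664 and 0.675 in KO and 0.695, 0.591 and 0.716 in addback. The WT ratios lay above all others, and KO and addback overlapped. With 3 libraries against 3 the smallest two-sided p of an exact permutation test is 0.1, which was reached for KO against WT and for addback against WT. For KO against WT this was fixed by the levels given above, where PSMB7 was lower and PSMB6 higher without overlap. There the ratio is a description. PSMB7 per PSMB5 count was 0.817, 0.778 and 0.816 in WT, 0.648, 0.684 and 0.694 in KO and 0.612, 0.526 and 0.651 in addback, again with WT above both others. Counting strand is not given in the sources used here, and 38.3% of the exon bases of PSMB7 are shared with the antisense gene LOC100129034, so reads of these genes cannot be told apart without strand. PSMC5 shares 105 exon bases with FTSJ3 on the opposite strand, and the deposited exons of PSMB3 include a copy on an alternate contig.

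The ATPase genes had the highest median fold of the classes in KO against WT: 4 of 6 were called higher and 1 lower, with a median of 0.21, against 0.05 for the 15 core genes and 0.07 for regulatory genes. PSMC4 was at 289, 281 and 258 scaled CPM in WT, at 344, 344 and 336 in KO and at 357, 338 and 319 in addback. KO and addback overlapped and both lay above WT, by 0.31 ± 0.05 (adjusted p = 0.00174) and 0.29 ± 0.05 (adjusted p = 0.00764). PSMC3 was at 128, 123 and 119 in WT, 152, 157 and 148 in KO and 149, 140 and 134 in addback, with folds of 0.30 ± 0.05 in KO against WT (adjusted p = 0.00144) and 0.19 ± 0.05 in addback against WT (adjusted p = 0.0357). The second of these was lost without WT library 2 (adjusted p = 0.0896) or 3 (0.0891) or addback library 1 (0.11) or 2 (0.0968). PSMC1 and PSMC6 also rose in KO against WT, PSMC5 did not pass the test (0.12 ± 0.05, adjusted p = 0.0531), and PSMC6 was the ATPase gene called lower in addback than in KO. PSMC6 was at 75.6, 74.3 and 76.4 in WT, 86.6, 88.6 and 84.1 in KO and 79.6, 82.5 and 76.3 in addback. KO lay above both other groups, which overlapped, with folds of 0.20 ± 0.04 over WT (adjusted p = 0.00299) and -0.12 ± 0.04 for addback over KO (adjusted p = 0.027). The second of these was lost without KO library 1 (adjusted p = 0.0715) or 2 (0.0872) or addback library 1 (0.0558) or 3 (0.0963). PSMC2 went the other way, at 156, 153 and 151 in WT, 145, 145 and 146 in KO and 141, 141 and 135 in addback. No groups of PSMC2 overlapped, and it was lower in addback than in WT by 0.15 ± 0.03 (log2 -0.15, adjusted p = 0.014; 0.0918 without WT library 1). Its fold in KO against WT, -0.08 ± 0.03 (adjusted p = 0.044), missed the threshold without WT library 1 (0.265) or 2 (0.0847) or KO library 1 (0.102), 2 (0.0884) or 3 (0.0972) and with replicate number as a block (0.0524), and became 0.26 with TMM factors over all genes.

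Within libraries, the median of the ATPase genes minus that of the 15 core genes, each relative to its WT mean on the log2 scale, was 0.01, -0.00 and 0.00 in WT, 0.14, 0.22 and 0.17 in KO and 0.13, 0.11 and 0.13 in addback. This difference does not depend on library scaling, and WT lay below the other groups. The regulatory minus core difference ran from -0.04 to 0.07 in KO and from -0.02 to 0.02 in addback, and overlapped WT in both. PSMC4 and PSMC2 were chosen as the ATPase genes with the highest and lowest fold in KO against WT, so their ratio is a description. PSMC4 per PSMC2 count was 1.85, 1.84 and 1.70 in WT, 2.37, 2.37 and 2.30 in KO and 2.54, 2.40 and 2.37 in addback.

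**Figure D4:**
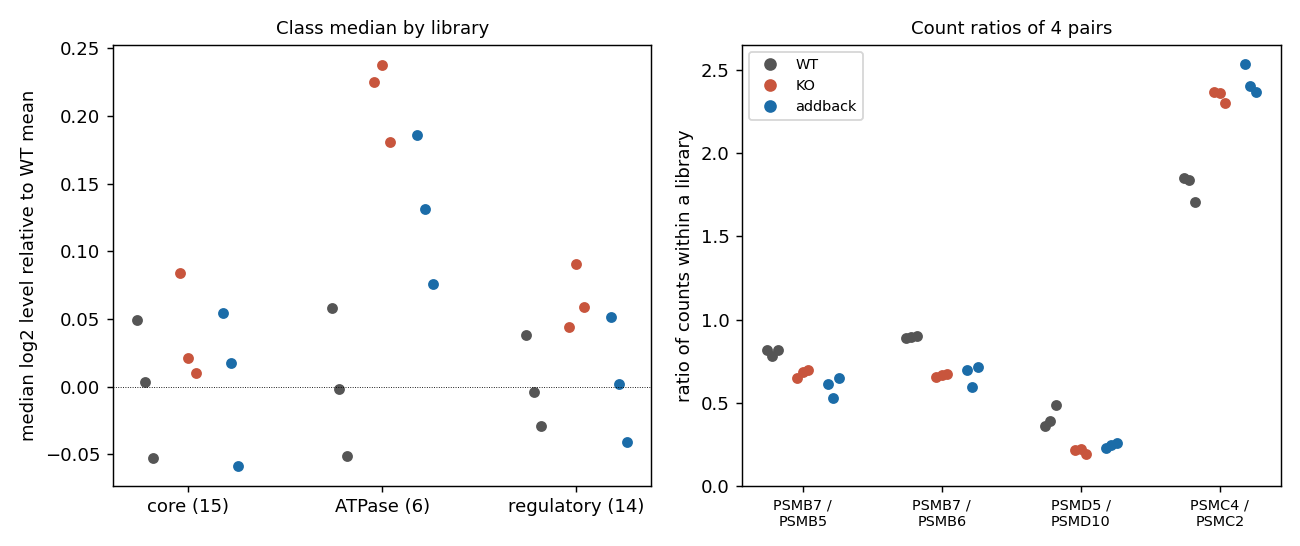
Left, median log2 level relative to the WT mean of 15 core, 6 ATPase and 14 regulatory genes in each library (vertical axis); right, ratios of counts within a library for 4 pairs of members (vertical axis, from 0). The ATPase medians of KO (0.18 to 0.24) and addback (0.08 to 0.19) lie above those of WT (-0.05 to 0.06), and PSMB7 per PSMB6 falls from about 0.90 in WT to between 0.59 and 0.72 elsewhere.

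The regulatory genes split evenly in KO against WT, with 4 of 14 called higher and 4 lower. Of the scaffolds and receptors in the base, PSMD2, a docking site for ubiquitin receptors, was at 314, 307 and 302 scaled CPM in WT, 277, 284 and 267 in KO and 257, 249 and 242 in addback. The groups did not overlap, and addback was lower than WT by 0.31 ± 0.04 (log2 -0.31, adjusted p = 0.000863) and lower than KO by 0.15 ± 0.04 (log2 -0.15, adjusted p = 0.00708). KO against WT gave -0.16 ± 0.04 (adjusted p = 0.00494), which became 0.18 with TMM factors over all genes. PSMD1, the other large scaffold, had the same order of groups (-0.11 ± 0.03 in KO against WT, -0.23 ± 0.03 in addback against WT, adjusted p = 0.00718 and 0.000754). In the authors' deposited gene table of KO against WT its fold was 0.14 ± 0.07 (adjusted p = 0.0684). PSMD4, a ubiquitin receptor, rose in KO against WT by 0.19 ± 0.05 (adjusted p = 0.00957).

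In the lid, 2 of 8 genes were called higher in KO than in WT (PSMD3 and PSMD8) and 1 lower (PSMD14). PSMD14, the subunit that cuts ubiquitin from substrates, was at 110, 103 and 111 in WT, 97.1, 100 and 97.1 in KO and 92.3, 95.0 and 90.3 in addback. No groups overlapped: KO differed from WT by -0.14 ± 0.04 (adjusted p = 0.0133; 0.0651 without WT library 1) and addback by -0.22 ± 0.04 (adjusted p = 0.00723). With TMM factors over all genes the first of these was 0.19. PSMD3 was at 309, 304 and 273 in WT, 340, 345 and 334 in KO and 306, 278 and 268 in addback. KO lay above both other groups (0.20 ± 0.06 against WT, adjusted p = 0.0157, and 0.0518 without KO library 2), and addback was lower than KO by 0.26 ± 0.06 (log2 -0.26, adjusted p = 0.00623).

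The assembly chaperones of the base diverged. PSMD10, an ankyrin-repeat protein also known as gankyrin, was at 84.4, 82.8 and 78.3 in WT, 95.3, 98.6 and 98.1 in KO and 85.3, 84.1 and 83.2 in addback. Only KO stood apart, by 0.25 ± 0.04 from WT (adjusted p = 0.00121), and addback was 0.21 ± 0.04 below KO (log2 -0.21, adjusted p = 0.00251). PSMD5 was at 30.5, 32.2 and 38.1 in WT, 20.5, 21.6 and 19.0 in KO and 19.3, 20.7 and 21.4 in addback. KO and addback overlapped below WT, with folds of -0.72 ± 0.10 (adjusted p = 0.00108) and -0.71 ± 0.10 (adjusted p = 0.00238), and addback against KO gave 0.01 ± 0.10 (adjusted p = 0.932). With background subtracted these folds were -0.63, -0.83 and -0.20, and PSMD5 per PSMD10 count was 0.361, 0.389 and 0.487 in WT against 0.215, 0.219 and 0.193 in KO and 0.227, 0.246 and 0.258 in addback. PSMD5 and PSMD10 had the lowest and highest fold of the regulatory genes in KO against WT, so their ratio is a description. PSMD9, the remaining chaperone, was not called in any comparison (-0.03 ± 0.07, 0.01 ± 0.07 and -0.02 ± 0.07). In the authors' deposited gene tables PSMD9 was called in KO against WT (0.20 ± 0.09, adjusted p = 0.0308) and in addback against KO (-0.23 ± 0.09, adjusted p = 0.0145).

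In addback against KO, which shares the KO libraries with the comparison above, 3 members were called higher and 14 lower, where 56.7% of all genes tested were called, 49% higher and 7.75% lower, and of low-background genes 18.3% and 20%. Leaving out PSMA8 and PSMB11, 14 of 35 members were lower (40.0%) and 1 was higher (2.86%). The class medians were -0.12 for the 15 core genes (-0.10 with PSMA8 and PSMB11), -0.08 for ATPase and -0.07 for regulatory genes, against 0.00 for low-background genes. The beta ring held the most of them: 5 of its 7 constitutive genes fell (PSMB1, PSMB2, PSMB3, PSMB6 and PSMB7), with folds of all 7 between -0.30 and -0.02. With background subtracted, 8 members were lower and 2 higher. Leaving out WT 2, WT 3, addback 2 and addback 3, the libraries of most background, 7 were lower and 3 higher. This sets 1 addback library against 3 KO libraries, which alone give the spread. Fewer samples and less background cannot be told apart there.

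In addback against WT, which shares libraries with both comparisons above, 3 members were called higher (PSMA6, PSMC3 and PSMC4) and 7 lower (PSMA2, PSMB7, PSMC2, PSMD1, PSMD2, PSMD5 and PSMD14), beside 9.23% of all genes tested, 4.33% higher and 4.9% lower, and 10.1% and 12.4% of low-background genes. PSMA2 of the alpha ring was at 116, 110 and 110 in WT, 107, 108 and 102 in KO and 99.0, 93.9 and 93.7 in addback, and fell by 0.23 ± 0.04 (log2 -0.23, adjusted p = 0.0069). This comparison moved least with scaling in its folds (TMM over all genes shifts the median of all genes by 0.04), but with that scaling 0 members were called higher and 1 lower, and DESeq2 called 0 higher and 4 lower. The TMM setting was the less sensitive one for all genes too, with 375 higher and 191 lower against 953 and 1077.

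The order of the groups can be read from the libraries without a test. In 6 of the 35 members (PSMA2, PSMB7, PSMC2, PSMD1, PSMD2 and PSMD14) the levels descended from WT to KO to addback with no overlap, an order found in 2.84% of low-background genes and 1.1% of all genes tested. In 9 (PSMA4, PSMB2, PSMB3, PSMB6, PSMC6, PSMD3, PSMD4, PSMD6 and PSMD10) KO lay above both others while WT and addback overlapped, an order found in 10.4% and 4.5%. Overlap takes no account of the replicate numbers, which pair addback with WT libraries. Among these 9, addback was above the WT library of the same number in all 3 pairs for PSMB2, PSMB3, PSMD4 and PSMD10 and below it in all 3 for PSMB6 and PSMD3. PSMA5 and PSMC1 had KO above addback and addback above WT (5.7% of the 35 members, 4.87% of low-background genes and 2.06% of all genes tested). PSMA6, PSMC3 and PSMC4 were lower in WT than in both other groups (8.6%, 5.86% and 2.88%). PSMD5 alone was higher in WT than in both, with KO and addback overlapping (2.9%, 8.51% and 3.82%). In PSMA3 and PSMB1 addback stood apart (5.7%, 8.76% and 4.42%). The groups of the other 12 members overlapped in some other way (34.3%, 38.9% and 29.9%). These orders use the low-background scaling, and were not recomputed with other scalings.

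With the low-background scaling, the members on chromosomes 9 and 7 shared their direction with the other genes there in both comparisons with WT. PSMB7 (hg38 chr9:124353465-124415473) and PSMD5 (chr9:120816054-120843021) are the members on chromosome 9, and both were lower in KO and in addback than in WT. For PSMB7 in KO against WT, the call was lost in 5 of 6 fits that left out 1 library. Its fold there was 0.14 with TMM factors over all genes. The 289 other low-background genes of chromosome 9 had a median of -0.45 in KO against WT, with 92.7% called lower, and of -0.42 in addback against WT, with 80.6% called lower; between addback and KO it was 0.02. Chromosome 9 had the lowest median of the 23 chromosomes compared in both comparisons with WT. PSMD5 lay 0.27 below its chromosome's median in KO against WT (-0.27) and PSMB7 lay 0.27 above it, whereas in addback against WT PSMB7 differed from it by -0.07 and PSMD5 by -0.29. PSMA2 (chr7:42916861-42932206) and PSMC2 (chr7:103347524-103369395) lie on chromosome 7, which was second lowest: its 345 low-background genes had medians of -0.22 in both comparisons with WT. In KO against WT both genes were at -0.08 (0.25 for PSMA2 and 0.26 for PSMC2 with TMM factors over all genes), and in addback against WT they were at -0.23 and -0.15. In addback against KO the chromosome medians were 0.02 (chromosome 9) and 0.01 (chromosome 7). There PSMB7 was at -0.30, PSMD5 at 0.01, PSMA2 at -0.15 and PSMC2 at -0.07. The members off chromosome 9 numbered 14 higher and 4 lower of 33 in KO against WT and 3 higher and 5 lower in addback against WT. A constant scaling shifts all chromosomes alike, so the order of chromosomes does not rest on it; the part of the chromosome-wide difference in the values of these members was not tested.

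**Figure D5:**
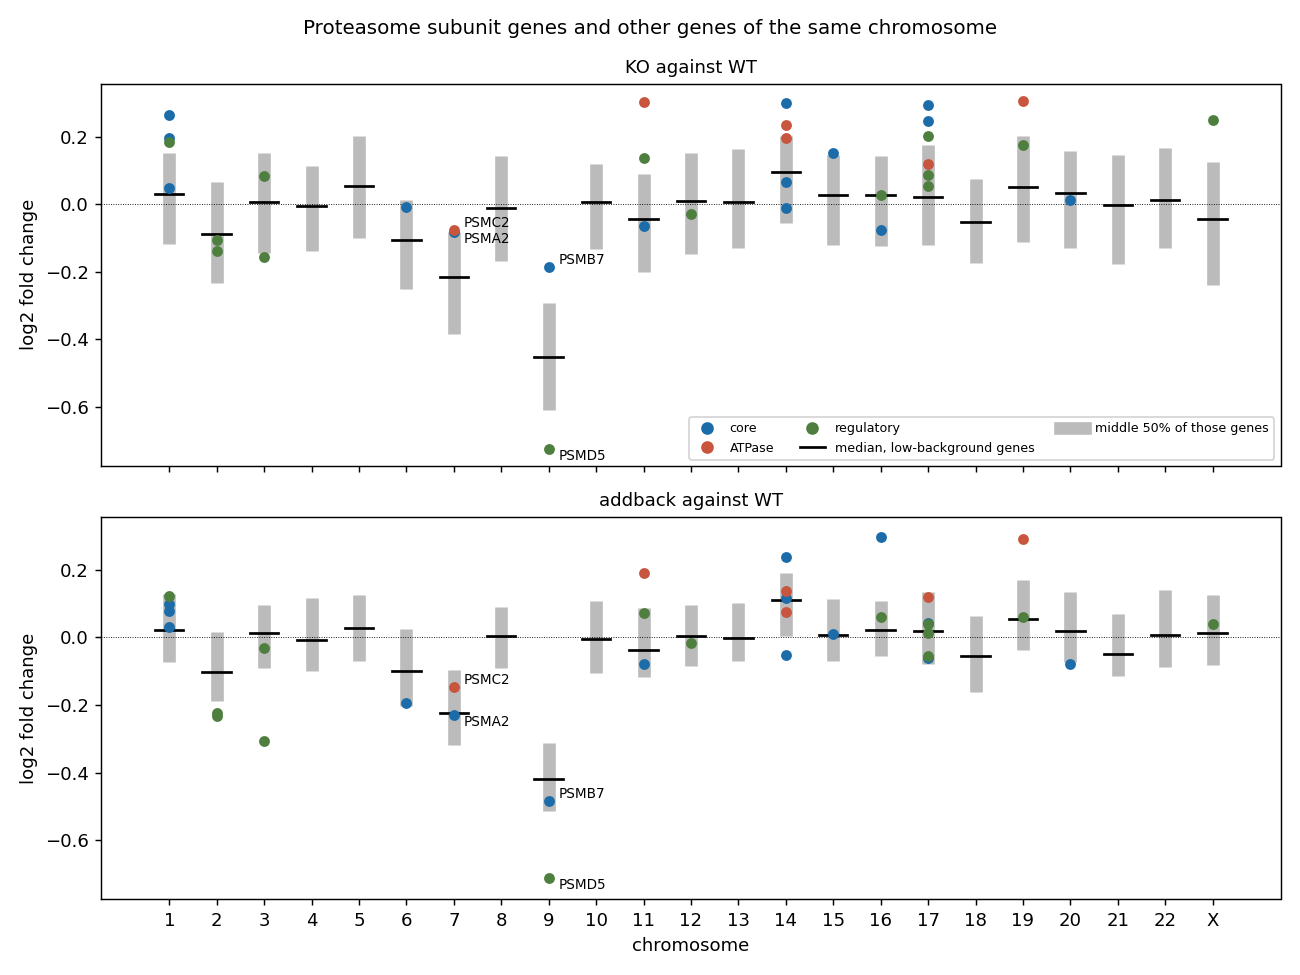
Log2 fold change (vertical axis) of 35 proteasome subunit genes (points, coloured by class) by chromosome (horizontal axis), in KO against WT and addback against WT, with the median (line) and the middle 50% (grey bar) of the low-background genes of each chromosome. On chromosome 9 the gene medians are -0.45 and -0.42, and PSMB7 and PSMD5 lie below 0 in both panels; PSMA2 and PSMC2 lie below 0 on chromosome 7, the second lowest.

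Genes that work with the proteasome were followed in a list of 33, of which 4 were called higher and 12 lower in KO against WT; the counts were 5 and 8 for addback over KO and 4 and 8 for addback over WT. In the same order these are 12.1% and 36.4%, 15.2% and 24.2%, and 12.1% and 24.2% of the list. Of all genes tested they were 9.54% and 52.4%, 49% and 7.75%, and 4.33% and 4.9%. Of low-background genes they were 23.3% and 26.2%, 18.3% and 20%, and 10.1% and 12.4%. Of the 12 lower genes, 5 lie on chromosome 9 and are all of the list's genes there: VCP, the unfoldase that extracts ubiquitinated proteins (-0.49 ± 0.04); the shuttle factors UBQLN1 (-0.55 ± 0.04) and RAD23B (-0.42 ± 0.03); KIAA0368, a proteasome adaptor also named ECPAS (-0.51 ± 0.05); and ZFAND5, a zinc-finger activator of the proteasome (-0.39 ± 0.04). VCP was at 555, 527 and 523 scaled CPM in WT, 390, 375 and 379 in KO and 386, 369 and 357 in addback, so KO and addback overlapped far below WT. In addback against WT their folds were -0.53, -0.63, -0.54, -0.54 and -0.29. With TMM factors over all genes, VCP, UBQLN1, RAD23B and KIAA0368 were not called in KO against WT (-0.16, -0.22, -0.09 and -0.17). RAD23B was not called there with DESeq2 either (-0.17). In addback against WT, TMM factors over all genes ended the calls of VCP and RAD23B (-0.50 each). Outside chromosome 9, 4 of 28 list genes were higher and 7 lower in KO against WT. DDI2, the protease that activates NFE2L1 (-0.73 ± 0.15, adjusted p = 0.00355), and PSMG4, a core assembly chaperone (-0.60 ± 0.12, adjusted p = 0.00319), were lower there, with backgrounds of 12.5% and 12.7% of their level, and DDI2 shares 44.4% of its exon bases with RSC1A1 on the same strand. With the background estimate doubled and subtracted neither was called (-0.38 and -0.18). PSMG4 was also not called with background subtracted once (-0.42, adjusted p = 0.112) or with TMM factors over all genes (-0.27, adjusted p = 0.17). PSMF1, an inhibitor of the core particle in vitro, rose in KO against WT (0.34 ± 0.04, adjusted p = 0.000687), and NFE2L1 itself was called in no comparison (0.04 ± 0.05, -0.10 ± 0.05 and -0.06 ± 0.05, adjusted p = 0.509, 0.102 and 0.705). The second was called with replicate number as a block (adjusted p = 0.0409) and without addback library 1 (0.0143). DESeq2 and TMM factors over all genes called the first of these NFE2L1 folds (0.29 and 0.37) and the second (-0.36 and -0.40). Upper quartile factors called the second (-0.23).

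Of the interferon-linked genes, PSME1, PSME2 and PSMB9 were higher in addback than in KO, the call of PSMB8 depended on single libraries, and PSMB10 was not called (0.37, adjusted p = 0.128). PSME1 and PSME2 encode an activator ring that caps the core particle, and PSMB8 and PSMB9 replace PSMB5 and PSMB6 in the immunoproteasome. PSME1 was at 84.3, 74.9 and 78.9 scaled CPM in WT, 74.7, 65.5 and 73.4 in KO and 113, 107 and 120 in addback, and PSME2 at 41.0, 41.2 and 41.7 in WT, 43.8, 43.9 and 43.5 in KO and 63.0, 54.6 and 55.0 in addback. Addback lay above both other groups in each: PSME1 rose by 0.67 ± 0.07 against KO and 0.52 ± 0.07 against WT (adjusted p = 0.00077 and 0.00156), and PSME2 by 0.40 ± 0.06 and 0.48 ± 0.06 (adjusted p = 0.00203 and 0.00119). The call of PSME2 against KO was lost with DESeq2 (0.14, adjusted p = 0.32) and with TMM factors over all genes (0.10, adjusted p = 0.496). PSMB9 was at 1.68, 3.87 and 4.01 in WT, 0.964, 1.10 and 1.14 in KO and 8.92, 9.54 and 13.8 in addback, with folds of -1.58 ± 0.41 (KO over WT), 3.33 ± 0.43 (addback over KO) and 1.75 ± 0.40 (addback over WT) (adjusted p = 0.00948, 0.00184 and 0.0269). Background made up 21.7% of its level and 43.3% of that of PSMB8, and with background subtracted the first of these folds was -0.59 and not called while the second was 3.19. With the estimate doubled the second was 3.00 and not called (adjusted p = 0.123). The call in addback against WT was lost without addback library 2 (adjusted p = 0.073) or 3 (0.116). PSMB8 was called in addback against KO (1.75 ± 0.51, adjusted p = 0.0171), a call lost with background subtracted (1.03, and -0.91 with the estimate doubled) and without any one of KO libraries 1 (0.062), 2 (0.0563) and 3 (0.0504) and addback libraries 2 (0.0598) and 3 (0.0536).

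Transcription past the gene end was deposited for 6 members as the authors' downstream regions, without values per library. In the authors' deposited table of KO against WT, the region after PSMA6 (hg38 chr14:35317480-35330279) had a log2 fold of 0.92 ± 0.18 (SE, adjusted p = 2.83e-06) and that after PSMB5 (chr14:23012052-23025851) 0.59 ± 0.12 (adjusted p = 7.51e-06). The region after PSMD12 had 0.20 ± 0.07 (adjusted p = 0.00966), and those after PSMA1, PSMA4 and PSMC4 were not called. Of the 2541 regions in that authors' deposited table, 24.8% were called higher and 25% lower. In the authors' deposited table of addback against KO, where 18.6% of 2396 regions were called higher and 15.5% lower, the region after PSMB5 was lower (-0.43 ± 0.12, adjusted p = 0.000883) and that after PSMC4 higher (0.21 ± 0.08, adjusted p = 0.0227), and the region after PSMA6 was not called (-0.33 ± 0.18, adjusted p = 0.0759). The folds of these tables are not on 1 scale: fold over SE returns the authors' p in 100% of regions of the first and 7.43% of the second. In the authors' deposited gene table of KO against WT, PSMB5 itself had 0.28 ± 0.11 (adjusted p = 0.0161) and PSMA6 0.50 ± 0.11 (adjusted p = 1.67e-06), so these genes and their regions were called in the same direction. PSMB5 was not called in the edgeR fit used above (0.07, adjusted p = 0.374). In the authors' deposited gene table of addback against KO, PSMB5 was lower like its region (-0.32 ± 0.11, adjusted p = 0.00397). PSMC4 was lower there (-0.24 ± 0.10, adjusted p = 0.024), opposite to its region. The difference between gene and region was not tested.

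Promoters of the members were searched on both strands for the core of the antioxidant response element (TGACNNNGC), the CCAAT box (CCAAT) and the GC box (GGGCGG), from 250 bases before to 50 after the start in RefSeq (GRCh38.p14). Of the 32 members found in that table, 9 held TGACNNNGC (28.1%, against 16.1% of all genes), 17 held CCAAT (53.1% against 39.7%) and 20 held GGGCGG (62.5% against 48.3%). By class, TGACNNNGC was in 2 of 13 core, 2 of 6 ATPase and 5 of 13 regulatory genes. Matches of different motifs overlapped at 1 place in the members. Promoters of PSMD4, PSMB1, PSMB6, PSMB7 and PSMA7 were not analysed here. The stretches below are 59 bases each in the direction of transcription, with the match in capitals. They come from members whose RNA went different ways in the edgeR fit, so that the match can be set beside the values. PSMB3 and PSMD3 were higher in KO than in WT, PSMD12 was called in no comparison, and PSMD5 was lower in both comparisons with WT. In the authors' deposited gene tables PSMD12 was called higher in KO against WT (0.31 ± 0.09) and lower in addback against KO (-0.28 ± 0.09).
PSMB3: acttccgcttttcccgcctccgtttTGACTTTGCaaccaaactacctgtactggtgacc
PSMD3: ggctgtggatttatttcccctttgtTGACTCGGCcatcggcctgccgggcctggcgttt
PSMD12: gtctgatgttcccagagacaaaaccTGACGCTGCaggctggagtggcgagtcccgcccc
PSMD5: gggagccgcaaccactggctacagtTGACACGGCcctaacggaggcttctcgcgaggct
These matches begin 104, 37, 165 and 134 bases before the start, within chr17:38752612-38752670 (plus strand), chr17:39980745-39980803 (plus strand), chr17:67366709-67366767 (minus strand) and chr9:120843023-120843081 (minus strand). A match is a description of the letters. The others of the 9 members that hold one are PSMD1, PSMD9, PSMA4, PSMC5 and PSMC4. Of all 9, 4 were called higher and 2 lower in KO against WT. Of the 23 searched members without a match, PSMA8 and PSMB11 among them, 8 were called higher and 5 lower.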

How the data were processed

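Poly(A) RNA of 9 HEK293 libraries was analysed from the authors' deposited tables. Counts per gene were deposited for 26485 genes, with gene lengths; the authors' result tables give base means (a signal), log2 fold changes with SE, test statistics (a score) and p-values, per the file headers. The submitters' processing notes name cutadapt 1.8.1, STAR 2.5.2b, DESeq2 and hg38; counting program, annotation and strand: not given in the sources used here. Columns named KO.U were taken as addback, as the authors' tables name that group KO with UBE3D. No sample column was left unused.

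Background was the median of counts per kb of coding sequence over 460 tissue-restricted genes (olfactory, taste, keratin-associated, defensin and cornified envelope families); genes with background of at most 10% of their mean CPM numbered 7663. The test was edgeR's (version 4.0.16, R 4.3.3) on 21994 genes that passed filterByExpr (TMM factors from the 7663 genes; 1 robust quasi-likelihood fit over 9 libraries; Benjamini-Hochberg over all genes; called at adjusted p under 0.05). Standard errors are the fold over the root of F. The fit was tested on simulated data. Alternatives were TMM over all genes, upper quartile factors, DESeq2 1.42.0, low-background genes alone, no low-count filter, background subtracted once or doubled, the 6 libraries compared, a replicate block, each library left out, and, added after seeing the data, leaving out WT 2, WT 3, addback 2 and addback 3. Coordinates are hg38, exons from the deposited table. Replicates of a group differed beyond sampling noise (chi-square per degree of freedom from 1.95 to 42.7). Count noise is small at these depths, except for PSMA8 and PSMB11.

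Over all genes tested, replicate numbers paired addback with WT libraries (correlations of deviations from group means 0.89, 0.60 and 0.74) and not the other comparisons (-0.05 to 0.02). Over low-background genes these correlations were 0.58, 0.30 and 0.63, and from 0.006 to 0.19 in the other comparisons. The pairing comes from the data. Values in every library are given for PSMB5, PSMB6, PSMB7, PSMB10, PSMD14 and the 2 largest called changes of each direction, class and comparison; related genes are named where called with a log2 fold of at least 0.4, at most 5 in each direction and comparison, largest first, and PSME1, PSME2, NFE2L1, PSMB8 and PSMB9 always; ZFAND5 and the members in the lists of orders were added after their values were seen. The members and lists were chosen with earlier results of these data known. The promoter table is from RefSeq (GRCh38.p14).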

Additional observations from a re-analysis of the deposited data

How the results depend on the processing

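In KO against WT, members called higher were 25 with DESeq2, 24 with TMM over all genes and 8 with background doubled and subtracted; members called lower were 3 with DESeq2, TMM over all genes or upper quartile factors 4 among low-background genes alone and 10 with background doubled and subtracted. Leaving out single libraries gave 5 to 8 lower. Class medians with DESeq2, TMM over all genes, upper quartile and doubled subtraction were 0.26, 0.34, 0.13 and -0.056 (core), 0.46, 0.55, 0.34 and 0.13 (ATPase) and 0.32, 0.40, 0.19 and -0.031 (regulatory); without the 4 libraries of most background (WT 2, WT 3, addback 2 and addback 3, which leaves 1 WT and 1 addback library, assumed to vary like the KO libraries) they were 0.17 (ATPase) and 0.017 (regulatory), and 0.022 for regulatory genes with background subtracted. Leaving out 1 library gave -0.0044 to 0.071 (core) and 0.043 to 0.10 (regulatory).

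In addback against KO, members called lower were 33 with DESeq2, 29 with TMM over all genes, 22 with upper quartile factors, 8 with background subtracted, 4 with it doubled and 7 without the 4 libraries; called higher were 1 among low-background genes and 5 with doubled subtraction. Medians in the order DESeq2, TMM, upper quartile, subtracted and doubled were -0.36, -0.40, -0.22, -0.041 and 0.015 (core), -0.34, -0.38, -0.21, -0.020 and 0.043 (ATPase) and -0.34, -0.38, -0.20, -0.033 and 0.025 (regulatory), and -0.023 (core) and -0.032 (ATPase) without the 4 libraries.

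In addback against WT, 0 members were called higher with DESeq2, TMM over all genes or upper quartile factors, 6 with background subtracted and 5 with it doubled; 4 were lower with DESeq2 and 1 with TMM over all genes. Leaving out 1 library gave medians of -0.064 to 0.036 (core) and 0.10 to 0.19 (ATPase).

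Among folds called in at least one of the fits compared, signs turned with DESeq2 and with TMM over all genes for PSMA3 (0.24, 0.32), PSMB7 (0.064, 0.14), PSMC2 (0.17, 0.26; upper quartile 0.045), PSMD2 (0.095, 0.18) and PSMD14 (0.11, 0.19) in KO against WT, and for PSMA3 (-0.13, -0.17) and PSMD5 (-0.25, -0.30) in addback against KO. With doubled subtraction they turned for PSMB9 in KO against WT (0.99) and for PSMC4 (0.15), PSMD5 (-0.51), PSMB8 (-0.91) and RAD23B (0.019) in addback against KO. Folds called in neither fit are not in these lists. Among them PSMA2 in KO against WT became 0.17, 0.25 and 0.039 with DESeq2, TMM over all genes and upper quartile factors, and PSMB5 became -0.056 with doubled subtraction. Members without values in every library are not in these lists either. Of these, PSMD1 in KO against WT was -0.11 in the fit used above and 0.14 in the authors' deposited gene table, and PSMD9 was -0.03 and 0.20. In addback against KO, PSMD9 was 0.01 and -0.23, and PSMC5 was 0.003 and -0.23. DESeq2 with its size factors moved the median of all genes by 0.26 in KO against WT and by -0.27 in addback against KO. The causes of these sign changes were not tested. With the replicate block, members called were 16 higher and 7 lower, 3 and 17, and 4 and 8 in the 3 comparisons, and no count moved by over 1.5 times. Of the named genes it ended the call of PSMC2 in KO against WT (adjusted p = 0.0524) and added calls of PSME1 (0.00964) and PSMB8 (0.0155) there and of PSMB5 (0.016), PSMC3 (0.0199), NFE2L1 (0.0409) and DDI2 (0.0432) in addback against KO. The pairing is given with the processing. Depth limits PSMA8, PSMB11, PSMB8 and PSMB9.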
